A study of Mus musculus with 6 samples.

Results

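Dividing cells at Day 10 were taken from digits in a dish (DID) cultures as the cells that carried at least 10 unique molecular identifiers (UMIs, each standing for 1 captured RNA molecule) of *Top2a* and *Mki67* together. Among 8350 cells of Day 10 replicate A that passed the limits on UMIs, genes and mitochondrial RNA, 785 met this rule, and 844 of 8357 did in Day 10 replicate B. The 1629 dividing cells were compared with the 10826 cells of the same libraries in which no UMI of either gene was found (5386 in replicate A and 5440 in replicate B), which are called 0-UMI cells here. The cells with 1 to 9 UMIs, 2179 and 2073, were left between the 2 groups. Whole-series totals stood at 54126 cells past the same limits.

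DID cultures are made from wild type CD-1 mouse embryos at E11.5: the distal forelimb mesenchyme of several embryos is dissected, pooled, dissociated and plated at high density in medium with fetal bovine serum, where it builds digit-like and carpal-like elements. One 10x Genomics 3′ v3.1 library was made from each of 2 independent cultures, called replicates A and B, on each of 3 days after plating (Day 2, Day 7, Day 10), 6 libraries in all. No treatment or mutation separates the libraries used here, so the dividing cells and the 0-UMI cells share strain, stage, tissue and medium, and within a library they share the dish, the dissociation and the sequencing run. The p-values below rest on how far the difference between dividing and 0-UMI cells of a library varied between cultures grown from pooled embryos. This spread was estimated together over the 4 cultures of Day 7 and Day 10, with 2 cultures per day. Shifts of a culture that both of its groups share do not enter it.

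A cell that divides first copies its DNA, for which it loads the MCM helicase on origins and makes nucleotides and histones, and then condenses its chromosomes and builds a spindle under the control of cyclin B, CDK1 and the Aurora and Polo kinases. *Top2a* encodes topoisomerase II alpha, which untangles the copied chromosomes, and *Mki67* encodes Ki-67, which coats mitotic chromosomes. Both transcripts build up from DNA replication to mitosis and are low in cells that rest. In the growing digit, division is known from the mesenchyme, the perichondrium that sheathes each cartilage element, and the young chondrocytes, whereas chondrocytes that enlarge toward hypertrophy leave the cycle and make the CDK inhibitor p57, the product of *Cdkn1c*.

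The rule fixed the levels of *Top2a* and *Mki67*, which are therefore given as a description. Dividing cells held a median of 19 *Top2a* UMIs in replicate A and 21 in replicate B, and a median of 10 *Mki67* UMIs in both. The sum of both genes had a median of 29 and 31 and reached 212 and 196 in single cells. *Top2a* was at 0 in 4 and 5 dividing cells and *Mki67* in 8 and 5, so nearly all dividing cells carried both transcripts. Dividing cells were also the deeper cells, with a median of 41549 and 41148.5 UMIs against 26826 and 25538.5 in 0-UMI cells, and 6232 and 6123 detected genes against 4902 and 4700. A fixed number of UMIs is reached more easily in a deep cell, and the part of depth in the share of dividing cells was not tested beyond the thinned values given next.

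Dividing cells made up 9.4% of Day 10 replicate A (exact binomial 95% interval 8.78 to 10.0) and 10.1% of replicate B (9.46 to 10.8). The same rule gave 31.1% and 21.1% in the Day 2 libraries and 10.5% and 9.1% in those of Day 7. With each cell thinned to 3000 UMIs and at least 2 of them from *Top2a* and *Mki67*, the Day 10 libraries gave 7.19% and 7.67%, the Day 7 libraries 10.3% and 8.87%, and the Day 2 libraries 27.9% and 36.0%. In both counts the Day 10 shares lay well below the Day 2 shares. The order of Day 10 and Day 7 was not stable, since replicate B at Day 10 was above replicate B at Day 7 by the first rule and below it by the second, which differs in both depth and threshold. Intervals cover counting error only.

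The limits themselves removed cells with these transcripts. Of the 659 and 643 barcodes of the Day 10 replicates that held more than 7500 genes, 40.4% and 38.6% carried at least 10 UMIs of *Top2a* and *Mki67*, which is 266 and 248 cells with a median of 92601.5 and 99526 UMIs. Without the upper limit on genes the dividing share was 11.7% and 12.1%. No doublet caller was run, and how many of these deep barcodes hold 2 cells was not tested. The mitochondrial limit alone removed 1523 and 1344 other barcodes, of which 3.35% and 2.75% met the rule, below the share in kept cells. Between the Day 10 libraries 40 barcodes were shared, 19 of which passed the limits in both, and 0 were dividing in both.

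The label was set beside 7 lists of cell cycle genes, 97 genes in all, which do not hold the 2 genes of the rule. These lists are described without a test, because cells picked for *Top2a* and *Mki67* had to carry the programme these belong to. The mitotic kinases and cyclins summed to 2475 and 2474 CPM (counts per 1000000, here UMIs of the list per 1000000 UMIs of the summed cells) in dividing cells against 74.7 and 72.1 in 0-UMI cells. Spindle and kinetochore genes stood at 3614 and 3804 CPM against 66.2 and 65.8. The genes of replication origins and forks differed less, with 1153 and 1118 CPM against 230.2 and 224.9. The genes of nucleotide supply gave 1002 and 939 against 120 and 119, and tubulin and stathmin genes 4597 and 4515 against 1284 and 1270. Each of the 97 genes was at least 2-fold higher in dividing cells.

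Among single genes, *Ube2c*, the E2 enzyme of the anaphase-promoting complex, was at 663 and 662 CPM (for single genes, scaled by TMM) in dividing cells and at 9.38 and 10.0 in 0-UMI cells. *Cdk1*, the kinase that starts mitosis, was at 376 and 368 CPM against 17.7 and 16.2. *Nusap1*, which bundles spindle microtubules, was at 229 and 259 CPM against 1.22 and 1.32. Replication genes differed by smaller factors. *Pcna*, the sliding clamp of DNA polymerase, stood at 161 and 153 CPM against 41.0 and 39.5, and *Mcm3*, a subunit of the replicative helicase, at 73.9 and 71.0 CPM against 16.4 and 16.1. Among the histone genes, *Hist1h2ap* was at 360.0 CPM in dividing cells of replicate A and 47.6 in replicate B. The 2 libraries thus differed more in this gene than in any list total given above, and the gene is uncertain, since reads of near-identical histone genes can be split between copies. The whole histone list was uneven too. In cells with 10 to 19 UMIs of *Top2a* and *Mki67* it stood at 712.2 and 470.5 CPM, beside 3191 and 3165 in such cells of Day 7. The cause was not tested.

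To ask where in the cycle the members stood, each cell was thinned to 3000 UMIs, and a cell was said to carry a list when it then held at least 3 UMIs of it. The mitotic list was carried by 80.3% and 80.7% of dividing cells and by 0.928% and 1.21% of 0-UMI cells. The replication list was carried by 54.3% and 55.0% of dividing cells against 4.98% and 5.09%. By these lists 14.3% and 13% of dividing cells carried replication genes alone, 40.3% and 38.7% mitotic genes alone, 40% and 41.9% both, and 5.48% and 6.28% neither. The libraries gave nearly the same division, with mitotic genes in about 8 of 10 dividing cells. The rule asks for transcripts that build up toward mitosis, so this share was set in part by the choice of cells. It does not tell how all cycling cells were spread along the cycle, since cells early in it can miss the rule. Replication genes alone were carried by 13.1% and 12.3% of the 2179 and 2073 cells left between the groups. In 0-UMI cells these shares were 4.85% and 5.0%. Histone genes, whose level differed between libraries and days, were carried by 45.1% and 38.2% of dividing cells.

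The dividing cells were not uniform along their own threshold. From the cells with 10 to 19 UMIs of *Top2a* and *Mki67* (243 and 240 cells) through those with 20 to 49 (373 and 395) to those with at least 50 (169 and 209), the mitotic list went from 1300 to 2465 to 3760 CPM in replicate A and from 1334 to 2379 to 3641 in replicate B. The replication list ran the other way, from 1250 to 1200 to 955 in replicate A and from 1208 to 1155 to 975 in replicate B. Cells just inside the threshold, with 10 or 11 UMIs, numbered 62 and 63 and held 1281 and 1103 CPM of the mitotic list. Cells just outside it, with 8 or 9 UMIs, numbered 76 and 86 and held 1098 and 1112. The mitotic list thus had close levels on both sides. The replication list was at 1112 and 1051 CPM inside and 999.6 and 805.9 outside, a wider gap than that of the mitotic list in replicate B only. Less alike across the threshold was the summed level of the cartilage genes described further on, at 2787 and 3422 CPM inside and 5636 and 6016 outside. The share of cells that carried that list was close, at 56.5% and 61.9% inside and 53.9% and 65.1% outside. Further in, its level was 3897 and 5190 CPM with 10 to 19 UMIs and 2971 and 3244 with 20 to 49. With at least 50 it was 5056 and 5801, so it did not fall steadily.

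**Figure D1:**
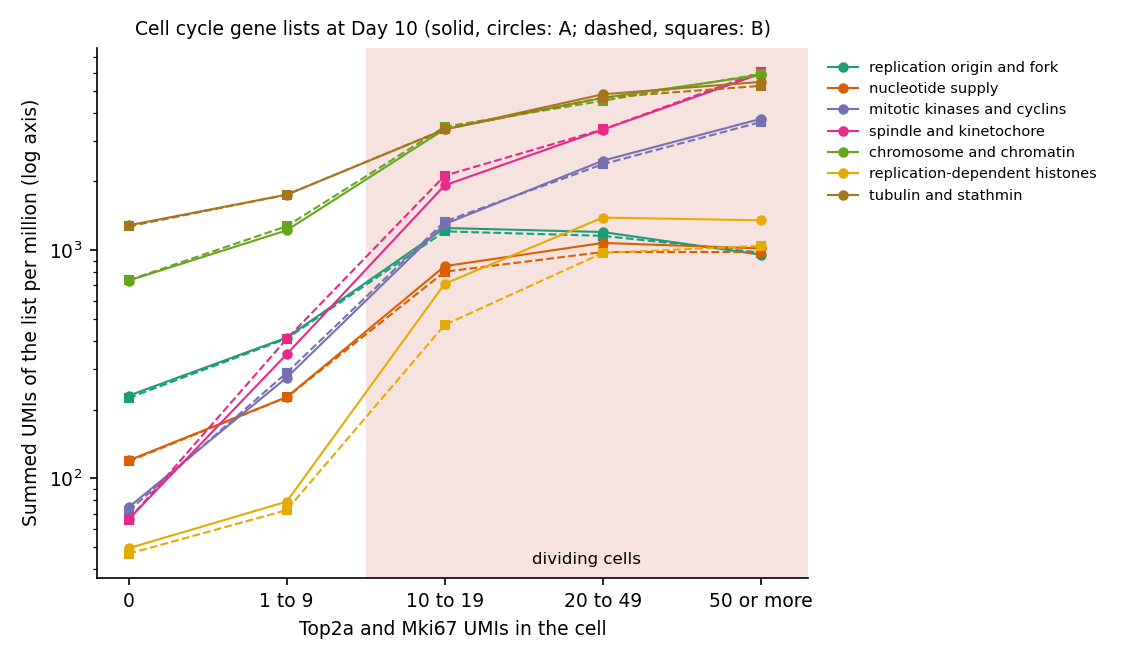
Summed CPM (log axis) of 7 cell cycle lists in Day 10 cells grouped by their UMIs of *Top2a* and *Mki67* (x axis), with solid lines and circles for replicate A and dashed lines and squares for replicate B. The shaded groups are the dividing cells. Mitotic and spindle genes climb across the whole range, whereas replication genes are highest at 10 to 19 UMIs, at 1250 and 1208 CPM.

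Promoters of 6 of these genes are shown because replication and mitotic genes went opposite ways along the threshold, and the sequences around their start sites differ in the words they hold. *Top2a* and *Mki67* chose the cells, *Cdk1* and *Ccnb2*, a B-type cyclin, stand for mitosis, and *Mcm3* and *Mcm5*, subunits of the MCM helicase, for replication. Each sequence runs 5′ to 3′ on the strand of its gene, from 250 bases before the start site to 50 after it, in the GRCm38.p6 assembly as annotated by RefSeq. Capitals mark 3 kinds of words, searched on both strands. The first kind is CCAAT. The second kind has either of a pair of words, TTTGAA or TTCGAA. The third kind has any of the 4 words TTTCCCGC, TTTGGCGC, TTTCGCGC and TTTGCCGC. The positions are chr11:99024140-99024439 on the minus strand for *Top2a*, chr7:135716330-135716629 (minus) for *Mki67*, chr10:69352863-69353162 (minus) for *Cdk1*, chr9:70421505-70421804 (minus) for *Ccnb2*, chr1:20820263-20820562 (minus) for *Mcm3* and chr8:75109259-75109558 (plus) for *Mcm5*.
Top2a: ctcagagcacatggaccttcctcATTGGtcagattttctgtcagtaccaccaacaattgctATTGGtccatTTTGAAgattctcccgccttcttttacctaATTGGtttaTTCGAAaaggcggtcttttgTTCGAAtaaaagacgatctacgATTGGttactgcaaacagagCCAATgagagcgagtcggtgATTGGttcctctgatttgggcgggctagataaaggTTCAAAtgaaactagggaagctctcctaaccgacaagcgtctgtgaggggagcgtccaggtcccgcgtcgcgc
Mki67: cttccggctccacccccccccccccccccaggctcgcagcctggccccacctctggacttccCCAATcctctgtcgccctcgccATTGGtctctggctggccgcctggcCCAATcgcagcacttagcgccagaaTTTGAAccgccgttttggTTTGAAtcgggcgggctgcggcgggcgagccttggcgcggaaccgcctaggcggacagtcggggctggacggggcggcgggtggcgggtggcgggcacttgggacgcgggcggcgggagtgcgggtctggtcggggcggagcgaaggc
Cdk1: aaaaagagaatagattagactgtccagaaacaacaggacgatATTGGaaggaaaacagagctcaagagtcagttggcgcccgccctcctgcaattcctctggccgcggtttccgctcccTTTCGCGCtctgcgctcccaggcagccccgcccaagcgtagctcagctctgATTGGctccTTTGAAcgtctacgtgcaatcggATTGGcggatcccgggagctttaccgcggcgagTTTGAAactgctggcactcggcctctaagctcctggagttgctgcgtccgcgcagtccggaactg
Ccnb2: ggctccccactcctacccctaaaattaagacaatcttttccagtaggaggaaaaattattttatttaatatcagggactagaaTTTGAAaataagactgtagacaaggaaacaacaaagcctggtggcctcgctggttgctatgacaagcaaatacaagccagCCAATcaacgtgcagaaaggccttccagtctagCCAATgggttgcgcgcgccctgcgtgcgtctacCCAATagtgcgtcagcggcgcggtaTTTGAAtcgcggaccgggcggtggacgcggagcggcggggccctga
Mcm3: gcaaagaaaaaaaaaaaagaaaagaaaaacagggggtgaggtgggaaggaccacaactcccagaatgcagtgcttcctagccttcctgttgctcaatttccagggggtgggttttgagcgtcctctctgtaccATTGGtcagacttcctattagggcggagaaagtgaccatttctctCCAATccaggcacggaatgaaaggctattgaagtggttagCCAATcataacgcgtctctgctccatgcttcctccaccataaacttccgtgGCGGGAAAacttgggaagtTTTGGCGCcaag
Mcm5: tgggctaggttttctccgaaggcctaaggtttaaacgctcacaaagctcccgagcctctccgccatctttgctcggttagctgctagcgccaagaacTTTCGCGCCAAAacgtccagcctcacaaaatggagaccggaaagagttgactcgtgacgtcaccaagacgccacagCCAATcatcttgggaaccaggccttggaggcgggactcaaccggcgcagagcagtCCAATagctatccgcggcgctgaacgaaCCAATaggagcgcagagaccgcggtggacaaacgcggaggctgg
The *Top2a* promoter held 6 copies of CCAAT and 4 of TTTGAA or TTCGAA, and that of *Mki67* held 3 and 2. *Cdk1* and *Ccnb2* each held 3 copies of CCAAT and 2 of TTTGAA or TTCGAA, and *Cdk1* also held 1 word of the third kind. The promoters of *Mcm3* and *Mcm5* held 3 copies of CCAAT each, none of TTTGAA or TTCGAA, and 2 of the third kind of word each.

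Over the lists the words were counted in the same window. TTTGAA or TTCGAA was found in 10 of the 15 promoters of mitotic kinases and cyclins that the table held (66.7%) and in 17 of 21 for spindle and kinetochore genes (81.0%), but in 4 of 16 for replication genes (25%) and in 21.7% of the promoters of 27025 genes. The third kind of word was found in 9 of 16 replication promoters (56.2%) against 1 of 15 mitotic promoters (6.67%) and 2.6% of all genes. Not every list fell on one side: chromosome and chromatin genes held the third kind of word in 6 of 9 promoters (66.7%) and TTTGAA or TTCGAA in 5 of 9 (55.6%), and genes of nucleotide supply held neither in 5 promoters. CCAAT was common to both, in 13 of 16 replication promoters (81.2%) and 13 of 15 mitotic ones (86.7%), beside 41.1% of all genes. Of the 13 cartilage genes described next, 9 had a promoter in the table, of which 3 held CCAAT, 2 TTTGAA or TTCGAA, and 0 the third kind. A match is a count of letters in this window and says nothing of a bound factor, and no promoter of the 10 histone genes was matched.

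Lineage markers were then counted in the dividing cells, after thinning to 3000 UMIs. The perichondrium list (*Thbs2*, *Col1a1*, *Fbn1* and *Fbn2*) was carried by 93.2% and 89.9% of dividing cells in replicates A and B, against 81.2% and 80.3% of 0-UMI cells. The contractile list, 7 genes of smooth muscle and myofibroblast cytoskeleton such as *Acta2* and *Cnn1*, was carried by 66.4% and 63.3% of dividing cells against 47.9% and 48.5%. The fibroblast list, with *Dcn*, *Lum* and *Col3a1* among its 6 genes, was carried by 68.5% and 60.8% against 64.3% and 58.1%. These 3 lists were carried by more dividing than 0-UMI cells in both libraries, by the widest margin for contractile genes.

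The cartilage list of 13 genes lay the other way. It was carried by 51.2% of dividing cells in both libraries against 68.7% and 69.8% of 0-UMI cells. Among the barcodes left out for holding more than 7500 genes this order was not found, since there the list was carried by 52.6% and 67.7% of those with at least 10 UMIs of *Top2a* and *Mki67* against 52.1% and 47.2% of the 194 and 176 with 0. Cells with at least 10 UMIs of the macrophage list, called macrophage-marker cells, which should not make cartilage matrix, carried it at 27.3% and 28.2% their median depth being 21025.5 and 22128 UMIs, and these shares were taken as the background of the setting. The share in dividing cells was above that background and below the share in 0-UMI cells. For the perichondrium list the background was 21.1% and 25.4%, for the contractile list 10.9% and 19.2%, and for the fibroblast list 14.1% and 10.7%. The amount also differed, since dividing carriers of the cartilage list held a mean of 25 and 26.9 of its UMIs among 3000, against 67.6 and 64.0 in 0-UMI carriers. At least 30 such UMIs among 3000 were found in 11.3% and 11.6% of dividing cells and in 33.0% and 32.2% of 0-UMI cells.

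Cartilage and contractile genes also occurred in the same dividing cell. Of dividing cells with the contractile list 42.2% and 43.1% carried the cartilage list, a smaller share than among all dividing cells. Both lists were carried by 28.0% and 27.3% of dividing cells, the contractile list without cartilage by 38.3% and 36.0%, cartilage without the contractile list by 23.2% and 23.9%, and neither by 10.4% and 12.8%. Among 0-UMI cells both lists were carried by 24.1% and 25.8%, and cartilage without the contractile list by 44.6% and 44.0%. The cells with cartilage genes alone thus made up a smaller share of the dividing cells than of the 0-UMI cells in both libraries, and cells with contractile genes alone a larger one. Free RNA and doublets can each place 2 lists in 1 cell, and their part was not tested.

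The remaining lists were carried by few dividing cells. Hypertrophic genes were carried by 5.1% and 5.81% of dividing cells against 11.6% and 12.5%, bone matrix genes by 8.03% and 8.77% against 9.84% and 11.9%, and tendon genes by 8.54% and 5.21% against 6.42% and 5.2%. The surface-like list (*Wnt10a*, *Cd34* and *Stmn2*) was carried by 3.95% and 2.25% against 1.82% and 1.12%, and the articular list (*Prg4*, *Creb5* and *Erg*) by 3.57% and 1.66% against 1.17% and 1.51%. Joint interzone genes were carried by 1.27% and 1.9% against 1.73% and 1.95%, and distal mesenchyme genes by 1.91% and 1.54% against 2.1% and 1.78%. In the hypertrophic list both dividing shares lay below both 0-UMI shares, whereas the tendon, joint and distal shares were close in the 2 groups. The background in macrophage-marker cells was 0 of 128 cells in replicate A for the hypertrophic, bone, tendon, articular, joint and surface-like lists and 1 of 128 for the distal list, and in replicate B it lay between 0% and 2.82%. In replicate B the articular list was carried by 2.26% of macrophage-marker cells, so that its 1.66% in dividing cells was no higher than background. Of the 19 lineage lists 7 were carried by more dividing than 0-UMI cells in both libraries. The 7 include the tendon list, at 5.21% against 5.2% in replicate B, and the articular list, which was no higher than background there.

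**Figure D2:**
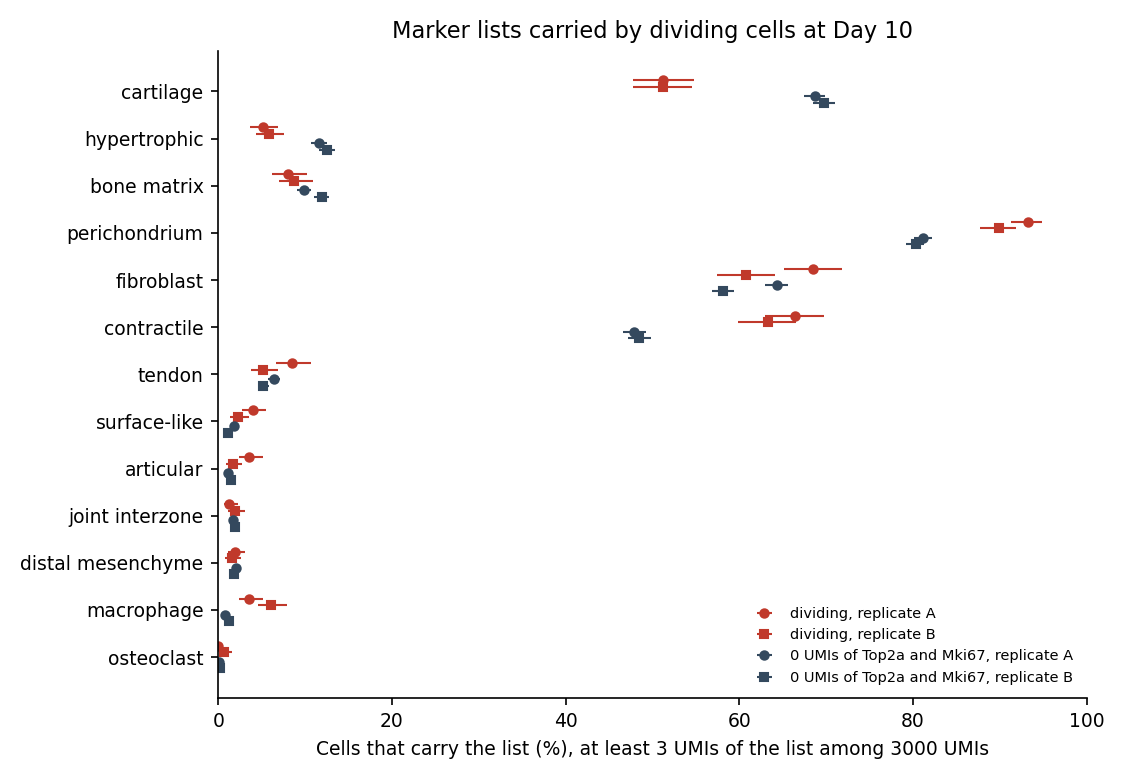
Share of Day 10 cells (percent, x axis) that hold at least 3 UMIs of each marker list after thinning to 3000 UMIs, for dividing cells (red) and 0-UMI cells (dark blue), with circles for replicate A, squares for replicate B and bars for exact 95% intervals. Cartilage and hypertrophic genes are carried by fewer dividing cells, at 51.2% for cartilage in both libraries, and perichondrium and contractile genes by more.

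Gene by gene, the UMIs of the dividing and of the 0-UMI cells were summed in each library and compared by the quasi-likelihood test of edgeR, in which each library formed its own block, and with Benjamini-Hochberg adjusted p-values over 16627 genes. At an adjusted p under 0.05, 26.6% of all genes tested were higher in dividing cells and 29.2% lower, so that being called is in itself common. With a change of at least 2-fold added, 7.08% were higher and 4.13% lower, and this rule was added after the data were seen. The median log2 difference of all genes was -0.05. All 13 genes of the cartilage list were lower in dividing cells, each by at least 2-fold, with a median log2 difference of -1.75.

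*Col2a1*, the main collagen of cartilage, was at 1619 and 1918 CPM in dividing cells of replicates A and B and at 6487 and 6334 CPM in 0-UMI cells. The groups were far apart in both libraries, and the level was 3.64-fold lower in dividing cells (log2 difference -1.86 ± 0.052 SE, adjusted p = 2.11e-10). *Acan*, the core protein of aggrecan, was at 225 and 266 CPM against 832 and 769, which is 3.26-fold lower (adjusted p = 3.46e-09). *Matn1*, a matrix protein of mature chondrocytes, was at 200 and 246 CPM against 984 and 1068, and with 4.62-fold it differed most within the list. *Sox9*, the transcription factor that sets the chondrocyte fate, differed least, with 102 and 101 CPM against 208 and 200, or 2.01-fold lower (adjusted p = 1.63e-09). The factor gene was thus nearer to the level of the 0-UMI cells than the matrix genes were.

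Among hypertrophic genes, *Ihh*, the hedgehog ligand of prehypertrophic chondrocytes, was at 5.39 and 3.54 CPM in dividing cells and at 31.6 and 34.7 CPM in 0-UMI cells. It was 7.46-fold lower (log2 difference -2.9 ± 0.13 SE, adjusted p = 1.31e-08). Among cells without the cartilage list *Ihh* was not called, at -0.7 (adjusted p = 0.159). *Col10a1*, the collagen of hypertrophic cartilage, was at 39.9 and 62.2 CPM against 152 and 101, which is 2.44-fold lower (adjusted p = 0.000229), and *Pth1r*, the receptor for parathyroid hormone-related protein, at 85.4 and 95.6 CPM against 217 and 247, 2.56-fold lower. *Mmp13*, a collagenase of the terminal zone, went the other way, with 15.3 and 25.9 CPM against 12.8 and 12.7 (1.59-fold higher, adjusted p = 0.00371). That call was carried by replicate B, since without it the log2 difference was 0.29 with an adjusted p of 0.205. The hypertrophic list thus had 3 genes lower and 1 higher.

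Of 9 bone matrix genes 5 were lower in dividing cells and 0 higher (1 higher without replicate B; 3 lower among cells without the cartilage list). *Ibsp*, bone sialoprotein, was at 367 and 180.0 CPM in dividing cells and at 564 and 965 CPM in 0-UMI cells, 2.84-fold lower (adjusted p = 0.00136). Its levels did not overlap between the groups, but replicate A was the higher library in dividing cells and replicate B in 0-UMI cells. *Alpl*, alkaline phosphatase, was at 61.8 and 74.4 CPM against 90.9 and 105 (adjusted p = 1.15e-06), and *Runx2*, the factor that specifies osteoblasts, at 47.9 and 48.2 CPM against 58.8 and 62.5 (adjusted p = 4.29e-05). In cells of 15000 to 40000 UMIs the *Runx2* difference was -0.01 on the log2 scale.

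The perichondrium, fibroblast and contractile lists showed small differences in level, although more dividing cells carried them. *Col1a1*, a fibrous collagen of perichondrium and bone, was at 3344 and 2897 CPM in dividing cells and at 3388 and 2979 in 0-UMI cells. The groups overlapped, and the log2 difference of -0.03 ± 0.023 SE did not pass the test (adjusted p = 0.292). Split by the cartilage list, however, *Col1a1* passed the test in opposite directions, at 0.21 on the log2 scale in carriers (adjusted p = 0.000196) and at -0.31 in the other cells (adjusted p = 2.09e-07). *Fbn2*, fibrillin 2 of embryonic microfibrils, was 1.18-fold higher at 254 and 228 CPM against 217 and 192 (adjusted p = 5.13e-05), and *Thbs2*, a thrombospondin, 1.19-fold lower at 127 and 114 CPM against 145 and 140.0 (adjusted p = 0.000458). Of the 4 perichondrium genes 2 were higher and 1 lower, with 3 higher and 0 lower in carriers of the cartilage list and 0 higher and 2 lower in the other cells. These calls depended on the cells compared, since *Thbs2* was at -0.03 in cells of 15000 to 40000 UMIs (adjusted p = 0.724) and *Fbn2* was not called in thinned cells, at 0.15.

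*Acta2*, smooth muscle actin, was at 2747 and 2390 CPM in dividing cells and at 2145 and 2096 CPM in 0-UMI cells, a 1.21-fold difference (log2 0.27 ± 0.036 SE, adjusted p = 7.38e-05). *Tagln*, transgelin, which binds actin, was at 1967 and 1796 CPM against 1530 and 1581 (adjusted p = 0.000153). Both dividing levels lay above both 0-UMI levels for these genes. In cells of 15000 to 40000 UMIs, however, the sign turned to -0.10 for *Acta2* and -0.15 for *Tagln*, and among cells without the cartilage list it turned to -0.11 and -0.14. *Myh11*, a smooth muscle myosin, was lower on 27 and 77 UMIs in the dividing cells (log2 difference -0.64), but the call was lost without replicate A (-0.23) and the sign turned to 0.90 in cells of 15000 to 40000 UMIs. The other 4 contractile genes were not called, among them *Cnn1* (calponin) at 136 and 111 CPM against 121 and 105, and *Actg2*, an enteric smooth muscle actin, at 151 and 131 against 116 and 132. Without replicate B, *Cnn1*, *Myl9* and *Actg2* passed the test at log2 differences of 0.20, 0.20 and 0.41. Across choices of cells the list gave opposite calls. Among carriers of the cartilage list 6 of the 7 genes were higher and 0 lower, with a median log2 difference of 0.51 and *Cnn1* at 0.50 (adjusted p = 0.0019). Among cells without it 7 were lower and 0 higher, with a median of -0.31 and *Cnn1* at -0.31 (adjusted p = 0.000226), *Myl9* at -0.34 (adjusted p = 3.76e-05) and *Actg2* at -0.31 (adjusted p = 0.0246). The 2 higher and 1 lower of all cells thus stood beside opposite calls in these groups of cells, and the difference between the groups was not itself tested. This split was chosen after the data were seen, and part of the macrophage-marker cells also counted as carriers. Of cartilage carriers, 54.7% and 53.2% of the dividing cells also carried the contractile list, against 35.1% and 37.0% of the 0-UMI cells. The part of this in the opposite calls was not tested.

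Of 6 fibroblast genes 1 was higher and 1 lower. *Pdgfra*, the PDGF receptor of mesenchyme, was at 39.7 and 38.5 CPM against 30.5 and 28.6, 1.32-fold higher (adjusted p = 1.41e-05) but at a log2 difference of 0 in cells thinned to 3000 UMIs (adjusted p = 0.997), and *Dcn*, decorin, at 47.5 and 60.6 CPM against 77.5 and 78.9, 1.45-fold lower (adjusted p = 2.64e-05; not called among cells without the cartilage list, at -0.25). *Col3a1*, *Lum* and *Postn* were not called, with log2 differences between -0.04 and 0.01. In carriers of the cartilage list these 3 passed the test as higher, at 0.20 for *Col3a1* (adjusted p = 0.000409), 0.19 for *Lum* (adjusted p = 0.00568) and 0.22 for *Postn* (adjusted p = 0.0214). In the other cells *Col3a1* (-0.21, adjusted p = 0.00413) and *Postn* (-0.38, adjusted p = 1.6e-05) passed it as lower. The fibroblast list had 4 higher and 1 lower in carriers, and 1 higher and 2 lower in the other cells. Of 8 fibrous collagens 1 was higher and 3 lower over all cells, with a median log2 difference of -0.01 (0 higher and 2 lower without replicate B). Carriers of the cartilage list gave 4 higher and 2 lower, and the other cells 1 higher and 5 lower. In the list of small leucine-rich proteoglycans, 4 of 6 were lower, 2 of them by at least 2-fold. *Omd*, osteomodulin, was at 31.0 and 40.7 CPM against 142 and 154 (4.15-fold lower, adjusted p = 1.81e-10), and *Ogn*, mimecan, at 238 and 268 CPM against 511 and 528 (2.06-fold lower). Matrix remodelling genes gave 2 higher and 3 lower of 7, with *Timp1*, an inhibitor of matrix proteases, at 646 and 668 CPM against 461 and 484, but 0 were higher in cells of 15000 to 40000 UMIs, where *Timp1* was at 0.04 on the log2 scale (adjusted p = 0.626), and 4 were higher in carriers of the cartilage list.

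Tendon genes were split, with 2 of 6 higher and 2 lower; without replicate A 0 were lower and without replicate B 1 was. *Thbs4*, a matrix protein of tendon, was at 40.7 and 27.5 CPM in dividing cells and at 15.7 and 11.4 in 0-UMI cells, 2.51-fold higher (adjusted p = 8.6e-08). *Tnmd*, tenomodulin of mature tendon cells, was at 39.6 and 29.4 CPM against 25.7 and 24.3, 1.37-fold higher (adjusted p = 0.000588), but at 0.01 on the log2 scale among cells without the cartilage list. The groups did not overlap in either gene. *Scx*, the transcription factor of tendon progenitors, was slightly lower at 61.1 and 56.7 CPM against 66.9 and 61.3 (log2 difference -0.12, adjusted p = 0.00961), and that call was lost without replicate A (-0.09) or without replicate B (-0.10). The other lower gene was *Fmod*, fibromodulin, whose call was lost without replicate A (-0.09), and 2 of 6 were not called.

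All 3 genes of the surface-like list were higher. *Cd34*, a sialomucin of vessels and mesenchymal progenitors, was at 10.6 and 13.7 CPM in dividing cells and at 2.78 and 3.06 in 0-UMI cells, 4.16-fold higher (log2 difference 2.05 ± 0.098 SE, adjusted p = 2.41e-08). *Wnt10a*, a WNT ligand, was at 10.9 and 19.9 CPM against 4.41 and 6.42 (2.8-fold higher, adjusted p = 2.44e-07), but in cells of 15000 to 40000 UMIs its log2 difference was -0.04. *Stmn2*, a microtubule regulator, was at 86.0 and 48.8 CPM against 51.4 and 35.8, so that the groups overlapped across libraries while each library gave the same direction. In the articular list *Creb5*, a transcription factor, was 1.42-fold higher, a call that was lost without replicate B at a log2 difference of 0.41, and *Prg4*, lubricin, was not called at 113 and 56.4 CPM against 40.7 and 61.7 (adjusted p = 0.0555). Replicate A lay above both 0-UMI levels for *Prg4* and replicate B between them, and without replicate B the log2 difference was 1.5 and passed the test.

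Genes of the early limb field changed little. Of 7 distal mesenchyme genes 2 were higher and 4 lower (2 lower in carriers of the cartilage list). *Hoxa13*, which patterns the hand and foot plate, was at 10.1 and 8.52 CPM against 12.4 and 11.4 (1.28-fold lower, adjusted p = 0.000673), and *Hoxd13* at 22.1 and 16.3 CPM against 17.8 and 14.3 (1.19-fold higher, adjusted p = 0.00165). The *Hoxd13* call was lost in thinned cells (0.04, adjusted p = 0.91), where 0 distal genes were higher and 1 lower, and without the library block (adjusted p = 0.181). In the joint interzone list 2 of 4 genes were higher and 1 lower, but 1 was higher and 0 lower without replicate A, and 1 was higher and 2 lower without replicate B. *Gdf5*, the ligand that marks future joints, was found at 22 and 96 UMIs in the dividing cells and was not called (adjusted p = 0.0853), yet without replicate B it passed the test at a log2 difference of -1.99.

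Macrophage markers had the highest median difference of the lineage lists. Each of 6 genes was higher by at least 2-fold, with a median log2 difference of 1.76. *Tyrobp*, an adaptor of myeloid receptors, was at 41.1 and 68.5 CPM in dividing cells against 15.3 and 26.3 (2.64-fold higher, adjusted p = 1.52e-07), and *C1qa*, a chain of complement C1q, at 18.1 and 33.2 CPM against 6.72 and 7.48 (3.54-fold higher). Both dividing levels were above both 0-UMI levels. These levels came from few cells: 128 and 177 cells held at least 10 UMIs of the list, and 28 and 52 of them were dividing, which is 21.9% (95% interval 15.1 to 30) and 29.4% (22.8 to 36.7) against 9.21% and 9.68% of the other cells. With thinned counts these shares were 18.8% and 22.6% against 7.01% and 7.35%. With all cells of at least 3 UMIs of the list left out, 756 and 788 dividing cells and 5333 and 5356 0-UMI cells remained. There 0 of the 6 genes were called, and the log2 difference was -0.16 for *Tyrobp*, -0.06 for *C1qa* and -0.25 for *Trem2*. Cells were left out by these same genes, so this outcome was set by the choice of cells and is no test.

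Within these cells, the osteoclast list (*Acp5*, *Dcstamp*, *Oscar* and *Mmp9*) stood at 27.0 and 869 CPM in the dividing ones and at 1537 and 3924 in those with 0 UMIs of *Top2a* and *Mki67*. Over all cells 1 of these 4 genes was lower in dividing cells and 0 higher: *Acp5*, tartrate-resistant acid phosphatase, whose call was lost without replicate A (log2 difference -0.04). Macrophage-marker cells made up 3.57% and 6.16% of the dividing cells and 0.817% and 1.31% of the 0-UMI cells.

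Lists of other cell types were carried by almost no dividing cell. Myogenic, endothelial, Schwann, epithelium and erythroid lists were carried by 0 of 785 and 0 of 844 dividing cells, which allows a share of up to 0.469% and 0.436% of cells that reach 3 UMIs of a list among 3000 (upper ends of exact 95% intervals). This limits carriers at that depth and not cells of these types, since the endothelial and erythroid lists reached it in 0 of the 0-UMI cells too. The pericyte list was carried by 0 and 1 dividing cells. *Myod1* and *Myog*, the factors that commit and mature muscle cells, had 0 UMIs in the dividing cells of both libraries, beside 3 and 34 (*Myod1*) and 4 and 110 (*Myog*) in 0-UMI cells, so that both calls rested on replicate B and were lost without it. Of 6 myogenic genes tested 4 were lower and 0 higher, and without replicate B 0 were called. The calls of 3 of 4 pericyte and 2 of 2 Schwann genes as lower were no firmer, with 1 and 0 lower without replicate A, 2 and 0 without replicate B, and 1 and 0 by DESeq2, and 0 pericyte genes were lower in cells of 15000 to 40000 UMIs. *Kdr*, a VEGF receptor, was higher (4.58-fold, adjusted p = 5.3e-05) on 51 and 41 UMIs in dividing cells against 47 and 38, and the macrophage markers were higher in the same comparison. Without cells that held at least 3 UMIs of the macrophage list, *Kdr* no longer passed the filter on low counts. *Pecam1*, an adhesion protein of endothelium, had 5 and 5 UMIs. Of 4 epithelium genes tested 0 were called, and no erythroid gene passed the filter on low counts.

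Inhibitors of the cell cycle did not move together. The rule picks cells by their place in the cycle, so the p-values of these inhibitors do not stand apart from that choice. *Cdkn1c* was at 343 and 355 CPM in dividing cells and at 1068 and 1167 in 0-UMI cells, 3.2-fold lower (log2 difference -1.68 ± 0.028 SE, adjusted p = 2.42e-12). *Cdkn1a*, p21, the p53-inducible inhibitor, was at 304 and 342 CPM against 475 and 530.0 (1.56-fold lower, adjusted p = 7.67e-07). *Cdkn2a*, which encodes p16 and p19Arf, was at 74.1 and 73.7 CPM against 104 and 112 (1.46-fold lower). These genes were lower in dividing cells without overlap. *Cdkn2b*, p15, was lower at 52.8 and 47.8 CPM against 57.1 and 56.1, a call that was lost without replicate B at a log2 difference of -0.09.

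The other 3 inhibitors were higher. *Cdkn2c*, which encodes p18 and binds CDK4 and CDK6, was at 66.6 and 68.0 CPM in dividing cells and at 5.46 and 4.71 in 0-UMI cells, 13.2-fold higher (log2 difference 3.73 ± 0.059 SE, adjusted p = 1.75e-12). *Cdkn2d*, p19 of the same family, was at 86.3 and 86.3 CPM against 15.4 and 15.3 (5.63-fold higher, adjusted p = 1.11e-12). *Cdkn1b*, p27, was 1.58-fold higher at 50.5 and 49.1 CPM against 31.1 and 31.9 (adjusted p = 4.9e-08). All 6 values of these dividing cells lay above the matching 0-UMI values. Among cells that carried the cartilage list, *Cdkn2a* and *Cdkn2b* turned to 0.11 (adjusted p = 0.117) and 0.41 (adjusted p = 2.34e-05) on the log2 scale, while *Cdkn1c* stayed at -1.53.

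Of 12 regulators of G1 phase 8 were higher and 2 lower. The largest difference was in *Ccne2*, a cyclin E that starts S phase, with 45.9 and 48.5 CPM against 2.78 and 2.74 (17.1-fold higher). *Ccne1* was 5.27-fold higher, *E2f1*, a transcription factor of S phase genes, 3.01-fold, and *Rbl1*, p107 of the retinoblastoma family, 5.61-fold. Such genes belong to the programme by which the cells were picked, so these differences are given as values. The D cyclins differed from those genes: *Ccnd2* was lower at 296 and 311 CPM against 523 and 534 (1.74-fold, adjusted p = 1.02e-09), *Ccnd3* was 1.14-fold lower, and *Ccnd1* was 1.11-fold higher, a difference of 0.03 on the log2 scale in cells of 15000 to 40000 UMIs. Because the rule picks cells by their place in the cycle, the tests of all these regulators do not stand apart from that choice. *Rb1* and *Rbl2*, the other retinoblastoma family genes, were not called, though *Rb1* passed the test without replicate A at a log2 difference of 0.30, in cells of 15000 to 40000 UMIs at 0.50 and among cells without the cartilage list at 0.52.

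Growth factor receptors were lower in 5 of 7 and higher in 1, but lower in 2 without replicate A and in 1 in cells of 15000 to 40000 UMIs. *Fgfr3*, the FGF receptor of growth plate chondrocytes, was at 27.6 and 30 CPM in dividing cells and at 95.1 and 90.8 in 0-UMI cells, 3.22-fold lower (adjusted p = 5.8e-10), but among cells without the cartilage list it was not called, at -0.10 (adjusted p = 0.544). *Fgfr1* differed by 1.13-fold, and that call was lost without replicate A (log2 difference -0.13, adjusted p = 0.0804). *Met*, the HGF receptor, was higher at 2.13 and 3.65 CPM against 0.97 and 1.14 (2.7-fold, adjusted p = 7.81e-05), but not called in cells of 15000 to 40000 UMIs. Of the hedgehog list 5 of 7 were higher and 2 lower, all by less than 2-fold, but 2 were higher without replicate A and 0 without replicate B, by DESeq2, in thinned cells or among cells without the cartilage list. *Ptch1*, a receptor that is itself a hedgehog target, was lower at 64.5 and 80.3 CPM against 83.4 and 101 (adjusted p = 9.68e-06), but at 0.06 on the log2 scale in cells of 15000 to 40000 UMIs.

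WNT targets gave 1 higher and 2 lower of 7 (1 and 1 without replicate A, 0 and 2 without replicate B), with *Nkd1*, a feedback inhibitor, 1.54-fold lower. BMP targets and antagonists gave 2 higher and 3 lower of 9 (1 higher when either library was left out; 5 lower among cells without the cartilage list), and the difference was greatest in *Nog*, noggin, a BMP antagonist of cartilage, at 16.7 and 19.6 CPM against 44.8 and 46.3 (2.51-fold lower, adjusted p = 1.58e-08). *Id2*, a BMP target, was 1.23-fold higher. Of 7 Notch genes 2 were higher and 2 lower (0 lower without replicate B), and of 6 YAP targets 1 was higher and 3 lower, none by 2-fold (5 lower against all cells under 10 UMIs). Apart from *Fgfr3*, *Met* and *Nog*, these signalling lists held no called gene that differed by 2-fold or more.

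Imprinted growth genes were lower in 9 of 11 and higher in 0, with a median log2 difference of -0.64. *Plagl1*, a zinc finger factor, was at 95 and 102 CPM against 236 and 247 (2.46-fold lower, adjusted p = 2.84e-11), *Meg3*, a long noncoding RNA, at 629 and 649 CPM against 1213 and 1321 (1.98-fold lower), and *Igf2*, an embryonic growth factor, at 626 and 670.0 CPM against 1076 and 1062 (1.65-fold lower). Both dividing levels were below both 0-UMI levels in each of these, but among cells without the cartilage list *Plagl1* was at -0.03 (adjusted p = 0.669). In cells of 15000 to 40000 UMIs, 6 of the 11 were lower and 1 higher with a median of -0.17, and *H19*, lower at 1091 and 1138 CPM against 1520 and 1446, was at -0.05 there.

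Genes of embryonic growth were higher in 5 of 8 (3 without replicate A or among cells without the cartilage list, 2 in thinned cells), with *Hmga2*, a chromatin protein of embryonic cells, at 188 and 197 CPM against 96.4 and 94.6 (2.02-fold higher, adjusted p = 5.05e-09) and *Hmga1* 2.4-fold higher (not called in thinned cells), while *Myc* was 1.1-fold lower, a call that was lost without replicate A at a log2 difference of -0.02. Of 8 nucleolus genes 6 were higher and 0 lower, led by *Pa2g4* at 189 and 185 CPM against 116 and 113 (1.63-fold, adjusted p = 7.49e-09). Glycolysis and hypoxia genes were lower in 6 of 8 and higher in 0, but among cells without the cartilage list 2 were lower and 4 higher, with a median log2 difference of 0.18. In the comparison of all cells, *Bnip3*, a mitophagy receptor induced by low oxygen, was at 76.8 and 102 CPM against 166 and 164 (1.86-fold lower, adjusted p = 1.66e-06) and *Vegfa* was 1.46-fold lower, and without the cartilage list *Bnip3* was not called at -0.07. Genes of secretory stress, the chaperones and factors of the endoplasmic reticulum, were lower in 5 of 7 and higher in 0, with *Hspa5* 1.32-fold lower. Among cells without the cartilage list 3 were lower and 1 higher, with a median log2 difference of -0.04 in place of -0.23.

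Of 12 p53 targets 7 were lower and 1 higher, the largest difference being in *Trp53inp1* at 10.9 and 10.3 CPM against 21.6 and 19.9 (1.95-fold lower, adjusted p = 2.29e-07). In cells thinned to 3000 UMIs and with no upper gene limit 4 were lower, and with no such limit the median log2 difference was -0.06 in place of -0.23. Of 12 genes known to respond to the dissociation of tissue 6 were lower and 1 higher in dividing cells, with a median log2 difference of -0.24. The direction did not hold in cells of 15000 to 40000 UMIs, where 2 were lower and 4 higher, with a median of 0.03. *Fos* was at 292 and 289 CPM against 345 and 366 (1.23-fold lower, adjusted p = 0.000157) but had a log2 difference of 0 in that window of depth (adjusted p = 0.968), and *Jun* was at 161 and 162 against 143 and 129 (1.19-fold higher, not called in thinned cells). Mitochondrial genes took a median of 3.35% and 2.86% of UMIs in dividing cells against 3.7% and 3.21%, and ribosomal protein genes 24.8% and 25.2% against 26.7% and 26.9%. The part of dissociation in the other differences was not tested.

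Outside the cell cycle lists and the genes of the rule, the 10 called genes with the largest positive difference were 84.7-fold to 150-fold higher. They were *Esco2*, *Pbk*, *Depdc1a*, *Cep55*, *Ska1*, *Neil3*, *Knl1*, *Ckap2l*, *Mxd3* and *Pimreg*. Most are known parts of mitosis or sister chromatid cohesion, such as *Esco2*, which acetylates cohesin (67.5 and 69.9 CPM against 0.408 and 0.505), *Knl1*, a kinetochore scaffold, and *Cep55*, a protein of abscission. They belong to the programme by which the cells were picked and are given as values. The 10 largest negative differences held 3 genes named above, *Ihh*, *Matn1* and *Omd*, and 7 others, *Ostn*, *Smim5*, *Comp*, *Cdsn*, *Nim1k*, *Scin* and *Ppp1r1b*. Among cells without the cartilage list *Ihh*, *Matn1*, *Smim5* and *Nim1k* were not called, and *Scin* (0.13) and *Ppp1r1b* (0.29) turned above 0 on the log2 scale without a call. *Matn1* is itself a gene of that list, by which these cells were picked. *Comp*, cartilage oligomeric matrix protein, was at 215 and 194 CPM against 954 and 918 (4.58-fold lower, adjusted p = 1.31e-12), and *Ostn*, osteocrin, a secreted peptide of bone and muscle, at 10.9 and 8.82 CPM against 54.9 and 54.9 (5.57-fold lower, adjusted p = 1.48e-09).

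Turned around, the same counts give the share of dividing cells among the carriers of each list, in which the threshold on *Top2a* and *Mki67* sets the numerator. Of cells that carried the cartilage list, 7.4% and 7.82% were dividing, against 13.1% and 14.5% of cells that did not. By the thinned rule, which asks for 2 UMIs of *Top2a* and *Mki67* among 3000, these shares were 6.59% and 6.66% against 8.3% and 9.64%, a smaller gap in the same direction. Of carriers of the hypertrophic list 4.58% and 5.31% were dividing, and of the 389 and 384 cells with an *Ihh* UMI among 3000, 2.57% and 2.6%. The hypertrophic share was the lowest of the lists plotted, and by the thinned rule it was 4.93% and 3.58% against 7.45% and 8.18% of the other cells. For the contractile list the dividing share was 11.9% and 12.1% in carriers and 6.65% and 7.85% in the other cells, with a median depth in carriers of 32597 and 31183 UMIs. The thinned rule gave 8.26% and 8.71% against 6.0% and 6.51%. For the perichondrium list the dividing share was 10.6% and 11.1% against 3.73% and 5.66%, and 7.97% and 8.47% against 3.38% and 4.0% by the thinned rule.

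Small lists had wide intervals. Among tendon carriers 12.7% and 10.4% were dividing, and among surface-like carriers 16.0% and 14.1% (95% intervals 11.1 to 21.9 and 8.69 to 21.1). Articular carriers gave 19.2% and 10.5%, so the libraries differed there as they did in *Prg4*. The surface-like carriers were deep cells, with medians of 43022.5 and 41239 UMIs, and by the thinned rule 10.8% and 6.67% of them were dividing, against 7.1% and 7.69% of the other cells. For articular carriers the thinned rule gave 11.6% and 9.77%, and for tendon carriers 11.2% and 8.77%. Macrophage carriers gave 21.7% and 29.1%, the highest of the lists plotted in both libraries. Of 85 and 112 cells with a *Cd34* UMI among 3000, 17.6% and 30.4% were dividing.

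**Figure D3:**
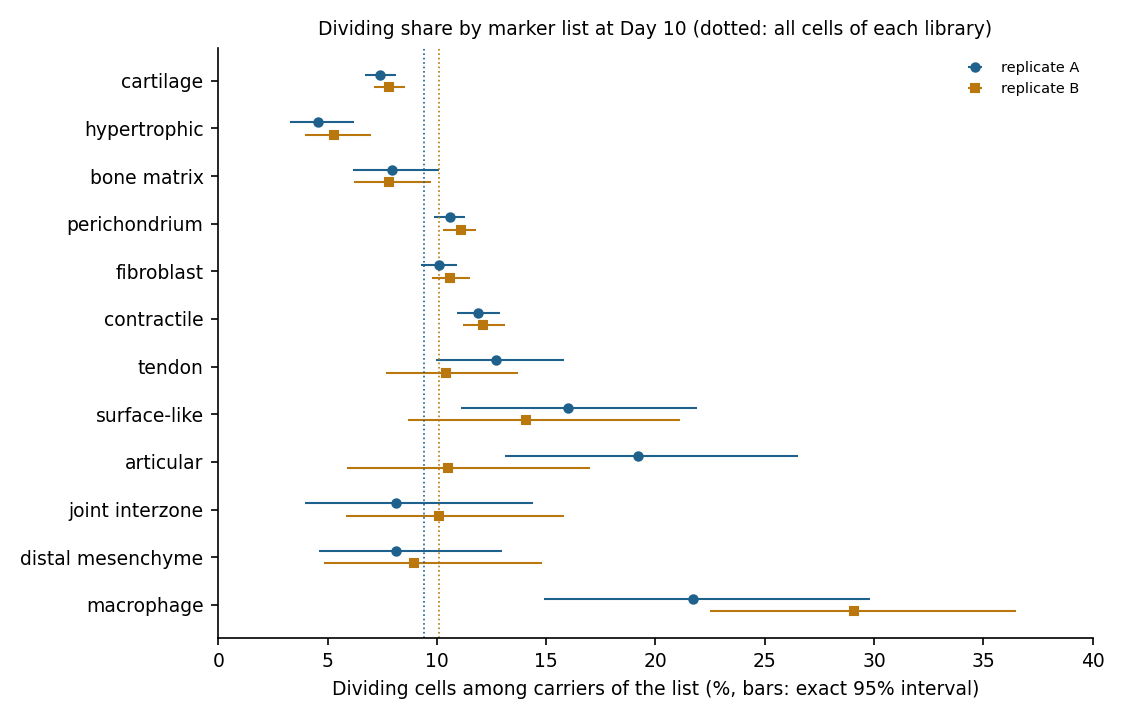
Share of dividing cells (percent, x axis) among the Day 10 cells that carry each marker list, with circles for replicate A, squares for replicate B and bars for exact 95% intervals; dotted lines give the share in all cells of each library, 9.4% and 10.1%. Carriers of the hypertrophic and cartilage lists lie below the lines in both libraries, and carriers of the contractile and macrophage lists above them.

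The same comparison of dividing with 0-UMI cells was made at Day 7, where 983 and 853 cells were dividing, and the difference of the 2 differences was tested in the same edgeR fit. Of all genes tested, the contrast was higher at Day 10 for 1.39% and lower for 6.18%. All 13 cartilage genes were among those lower at Day 10 in the comparison of all cells. For *Col2a1* the log2 difference between dividing and 0-UMI cells was -0.79 at Day 7 and -1.86 at Day 10, a change of -1.07 (adjusted p = 2.71e-05). *Acan* changed by -0.96 (adjusted p = 0.000148). *Col2a1* was also called in cells of 15000 to 40000 UMIs, but *Acan* was not, at -0.11 (adjusted p = 0.389). In the comparison of all cells, cartilage genes were thus below the level of 0-UMI cells at both days and further below it at Day 10. Among cells without the cartilage list the change was 0.14 for *Col2a1* and 0.36 for *Acan*, neither of them called. These cells were picked on both days for low levels of the list that holds both genes, so these values are no test. At Day 7 they numbered 204 and 226 dividing cells and 369 and 467 0-UMI cells. The cartilage list was carried by 79.2% and 73.5% of dividing cells at Day 7 beside 93.2% and 92.1% of 0-UMI cells.

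*Ihh* changed from -0.96 to -2.9, by -1.94 (adjusted p = 0.000211), and *Cdkn1c* from -0.88 to -1.68, by -0.8 (adjusted p = 2.69e-06). Neither was called in cells of 15000 to 40000 UMIs, where the changes were -0.64 for *Ihh* and -0.26 for *Cdkn1c*. Among cells without the cartilage list the *Cdkn1c* change passed the test in the opposite direction, at 0.41 (adjusted p = 0.0258). *Col10a1* was at 0.1 at Day 7 and -1.29 at Day 10 (adjusted p of the change 0.0175). That call was lost by DESeq2 (-1.37, adjusted p = 0.297), with no upper gene limit (-0.78, adjusted p = 0.278) and without the block, and hypertrophic genes were carried by 2.29% and 1.68% of 0-UMI cells at Day 7. Of the 7 contractile genes 6 changed downward. *Cnn1* stood at 0.88 at Day 7 and 0.12 at Day 10, a change of -0.76 (adjusted p = 0.000229). The *Cnn1* change was not called within carriers of the cartilage list (-0.41, adjusted p = 0.173) or within the other cells (-0.15, adjusted p = 0.523). In 0-UMI cells the share of carriers of this list was 26.3% and 24.0% on Day 7, later 47.9% and 48.5% on Day 10, while among dividing cells it was 46.9% and 49.5%, later 66.4% and 63.3%.

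Of 6 tendon and 4 perichondrium genes 2 each were called lower at Day 10 and 0 higher. *Scx* went from 0.54 to -0.12 (-0.66, adjusted p = 3.97e-05), *Tnmd* from 0.98 to 0.46 (-0.52, adjusted p = 0.0243) and *Col1a1* from 0.31 to -0.03 (-0.34, adjusted p = 0.000173). The last 2 did not pass the test without Day 10 replicate B, at -0.31 and -0.28. None of the 3 was called within carriers of the cartilage list, at -0.25 for *Scx*, -0.11 for *Tnmd* and -0.14 for *Col1a1*, or within the other cells, at -0.37, -0.59 and -0.07, and *Scx* and *Tnmd* were also not called in thinned cells, at -0.47 and -0.36. For *Cd34*, *Wnt10a*, *Prg4*, *Gdf5*, *Ibsp* and *Thbs2* the change was not called, with -0.03 for *Cd34* and -0.36 for *Wnt10a* on the log2 scale. Without Day 10 replicate A, however, *Ibsp* (-1.88), *Prg4* (-1.08) and *Gdf5* (1.39) passed the test. Of the 6 macrophage genes 5 changed downward, from a median of 2.72 at Day 7. The list of genes that respond to dissociation changed as well, with 10 of 12 higher at Day 10 and 0 lower, from a median log2 difference of -0.61 at Day 7 to -0.24, and its part in the other changes between days was not tested.

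**Figure D4:**
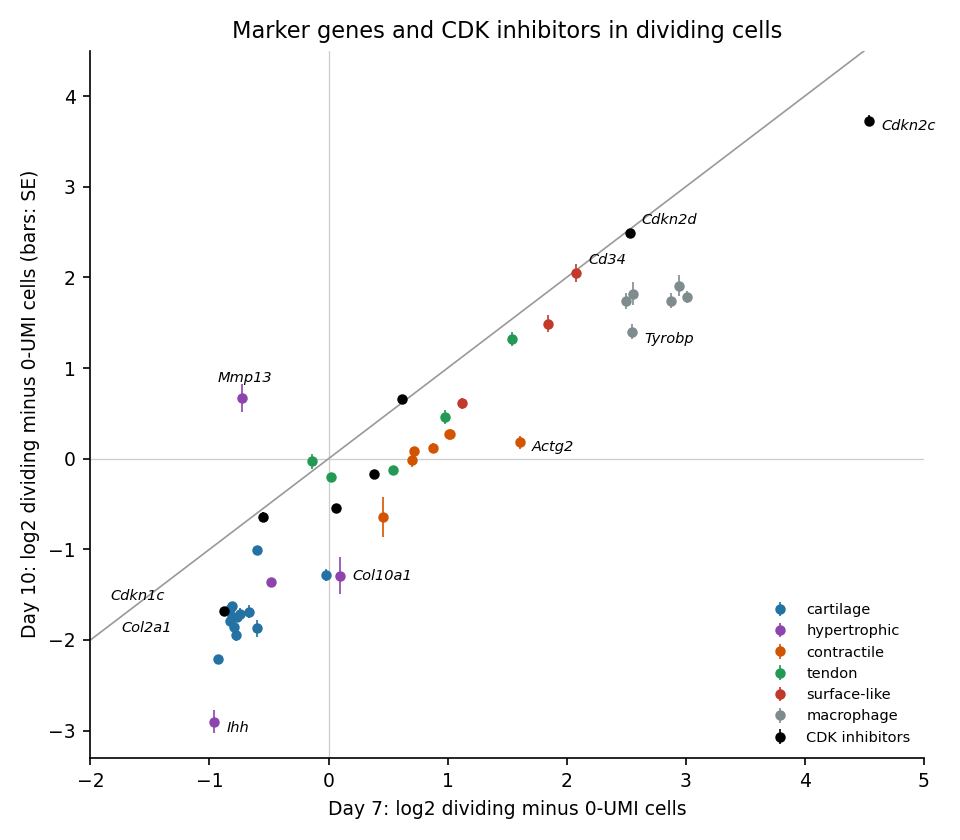
Log2 difference between dividing and 0-UMI cells at Day 10 (y axis, bars give the SE) against the same at Day 7 (x axis) for marker genes and CDK inhibitors, colored by list; the diagonal marks equal differences. Cartilage genes lie below the diagonal in the lower left, *Ihh* at -0.96 and -2.9, and contractile genes below it to the right of 0.

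How far the cartilage and hypertrophic differences rest on which cells were compared was examined on 12 genes. In cells of 15000 to 40000 UMIs, of which 304 and 352 were dividing, *Col2a1* was at -1.32, *Ihh* at -2.28 and *Cdkn1c* at -1.3 on the log2 scale, and with no upper limit on genes they were at -1.21, -1.54 and -1.15. The 13 cartilage genes were lower in both settings. Among cells that carried the cartilage list, *Col2a1* was at -1.54, *Matn1* at -1.87, *Ihh* at -2.61 and *Cdkn1c* at -1.53, so the dividing carriers held less of these transcripts than the other carriers. Among cells that did not carry the list, which were picked for low levels of its genes, *Col2a1* was at 0.04 and *Acan* at 0.34 (adjusted p = 0.00204), and 2 cartilage genes were higher and 2 lower. There *Cdkn1c* was at -0.54 and *Meg3* at -0.54, while *Ihh* (-0.7, adjusted p = 0.159) and *Matn1* (-0.1, adjusted p = 0.295) were not called. Both splits by the cartilage list were chosen after the data were seen.

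**Figure D5:**
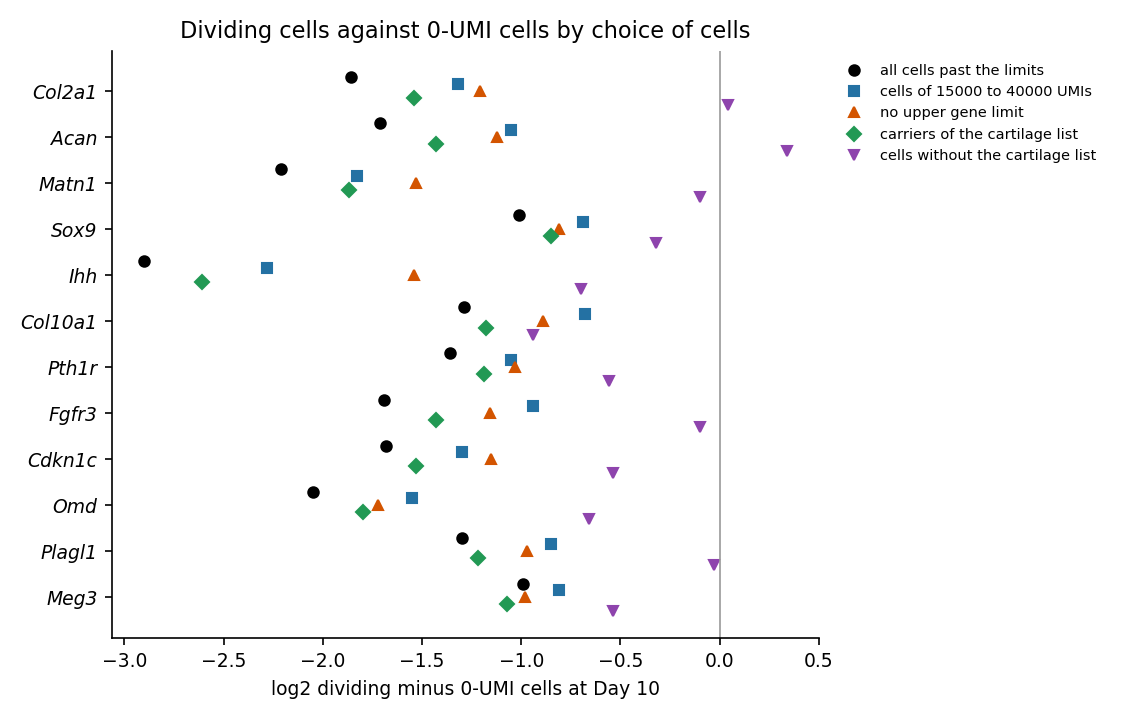
Log2 difference between dividing and 0-UMI cells at Day 10 (x axis) for 12 genes under 5 choices of cells, shown by symbol and color. All choices but the cells without the cartilage list place each gene below 0. In those cells, picked for low levels of the list, *Col2a1* is at 0.04 and *Acan* at 0.34.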

How the data were processed

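Single cells of 6 DID cultures were measured, 2 cultures each at Day 2, Day 7 and Day 10. The deposited files held raw UMI counts per gene and barcode for each library, which the authors made with Cell Ranger 6.1.2 and STAR on GRCm38 (mm10), with Seurat 4.1.0 also named in the submitters' processing notes. Their processing counts 1 UMI once, so PCR copies do not add to a count. Barcodes were kept here with at least 3000 UMIs, at most 7500 genes and at most 25% mitochondrial UMIs, which removed 1781, 659 and 2306 barcodes of 12313 in Day 10 replicate A and 2019, 643 and 2521 of 12363 in replicate B, counted limit by limit with overlaps. No doublets were removed. The members and lists were chosen with earlier results of these data known, and lists from an earlier analysis of the same files were reused.

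Counts of dividing and 0-UMI cells were summed per library and day. These sums held 32865447 and 34858927 UMIs in dividing cells and 149650427 and 145352472 in 0-UMI cells of Day 10. Genes were filtered with filterByExpr, scaled by TMM and fitted with edgeR 4.0.16 (quasi-likelihood test, R 4.3.3) on Day 7 and Day 10 sums, with a block for each library, because both groups of a library come from the same dish. Same-numbered sums deviated together (Pearson correlation across 7856 genes 0.602 at Day 10 and 0.243 at Day 7; genes are not replicates). Adjusted p-values are Benjamini-Hochberg values, and SE is the standard error of the log2 difference. CPM of single genes are TMM-scaled, whereas totals of lists are UMIs per 1000000 without that scaling. Genes named beyond the lists were the 10 largest positive and 10 largest negative called differences outside the cell cycle lists and the genes of the rule. They had a mean of at least 20 CPM in one group and no overlap between groups. For the test between days 15 genes were chosen. Shares carry exact binomial 95% intervals, which cover counting error only. DESeq2 1.42.0, other filters, thresholds and choices of cells were tried as alternatives. The scripts were tested on simulated data.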

Additional observations from a re-analysis of the deposited data

Results flagged for a closer look

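The difference between dividing and 0-UMI cells was itself different at Day 10 and Day 7 for 9 of 15 genes chosen for this test. The test was the contrast of the within-library differences of Day 10 and Day 7 in the edgeR fit, with Benjamini-Hochberg adjustment. The Day 10 minus Day 7 value on the log2 scale was -1.07 for *Col2a1*, -0.96 for *Acan*, -1.39 for *Col10a1* and -1.94 for *Ihh*, genes of cartilage and hypertrophic cartilage. It was -0.52 for *Tnmd* and -0.66 for *Scx* of tendon, -0.76 for *Cnn1* of the contractile list, -0.34 for *Col1a1* and -0.8 for *Cdkn1c*. All 9 values were negative. Over all genes tested, the contrast was lower at Day 10 for 6.18% and higher for 1.39%, so negative calls were the more common ones. The 15 genes come from lists that were chosen with earlier results of these data known. The makeup of the 0-UMI cells also differed between days. Within carriers of the cartilage list, *Scx* (-0.25), *Tnmd* (-0.11), *Cnn1* (-0.41) and *Col1a1* (-0.14) were not called, and within the other cells *Cdkn1c* passed the test in the opposite direction, at 0.41 (adjusted p = 0.0258), while the other genes were not called, with *Scx* at -0.37, *Tnmd* at -0.59, *Cnn1* at -0.15, *Col1a1* at -0.07 and *Ihh* at -0.65, and with *Col2a1* (0.14), *Acan* (0.36) and *Col10a1* (0.33) above 0. The other cells were picked for low levels of the cartilage list, which holds *Col2a1* and *Acan*, so the values of these genes there are no test. Of 12 genes that respond to dissociation, 10 changed upward between the same days, and their part was not tested. In cells of 15000 to 40000 UMIs the differences of *Acan* (-0.11), *Ihh* (-0.64), *Tnmd* (-0.40) and *Cdkn1c* (-0.26) were not called.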

How the results depend on the processing

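Of the single-gene values under all alternatives, 2121 kept their side of the threshold, 64 passed it only there and 117 lost it. A further 42 changed sign with a call in the main setting, the alternative or both. Values called in neither were counted as kept whatever their sign. Without the block that pairs dividing and 0-UMI cells of a library, 426 genes in place of 1259 differed between Day 10 and Day 7, and the calls between days of *Col10a1* (-1.41), *Tnmd* (-0.52) and *Col1a1* (-0.33) were lost. Leaving out 1 Day 10 library gave 3743 to 3835 genes higher in dividing cells (4429 with both), 3146 to 3148 lower (4851) and 638 to 710 different between days. Cells thinned to 3000 UMIs gave 2306 higher, 1955 lower and 223 different between days, DESeq2 gave 2664 lower and 481 different between days, cells without the cartilage list 2985 lower and 50 different between days, and a 2-fold minimum 1177 higher and 687 lower. Between days, 621 genes differed in cells of 15000 to 40000 UMIs, 775 with no upper gene limit and 635 in carriers of the cartilage list. These settings were added for the difference between days after the data were seen. The dividing share of replicates A and B was 7.19% and 7.67% by thinned counts, 11.7% and 12.1% with no upper limit on genes, 8.0% and 8.77% under the study's cell filter, 12.2% and 13.3% at a threshold of 5 UMIs, and 6.49% and 7.23% at 20. With 1 UMI enough to carry a list, 11 lists in place of 7 were carried by more dividing cells. Log2 differences that changed sign, with a call in at least one of the settings, follow by choice of cells. Cells of 15000 to 40000 UMIs gave *Acta2* -0.10, *Tagln* -0.15, *Wnt10a* -0.04, *Lum* 0.21, *Fmod* 0.00, *Myh11* 0.90 and *Ptch1* 0.06, and thinned cells *Scx* 0.07 and *Myh11* 0.37. With no upper gene limit *Myod1* was at 0.17. Carriers of the cartilage list gave *Scx* 0.10, *Col1a1* 0.21, *Thbs2* 0.01, *Cdkn2a* 0.11, *Cdkn2b* 0.41, *Lum* 0.19, *Postn* 0.22, *Fmod* 0.05 and *Myh11* 0.61. Cells without it gave *Col2a1* 0.04, *Acan* 0.34, *Hapln1* 0.03, *Acta2* -0.11, *Tagln* -0.14, *Cnn1* -0.31, *Myl9* -0.34, *Actg2* -0.31, *Col3a1* -0.21, *Scin* 0.13, *Ppp1r1b* 0.29, *Slc2a1* 0.15, *Fbn1* -0.09, *Ptch1* 0.11 and *Myc* 0.01, and changes between days of 0.14 for *Col2a1*, 0.36 for *Acan*, 0.33 for *Col10a1* and 0.41 for *Cdkn1c*. Without cells that held at least 3 UMIs of the macrophage list, *Tyrobp* was at -0.16, *C1qa* at -0.06, *Trem2* at -0.25 and *Acp5* at 0.01. All of these but *Acp5* are genes of that list, by which the cells were left out. In the same way, *Col2a1*, *Acan* and *Hapln1* are genes of the cartilage list, by which the cells without it were picked. The cause of these changes was not tested. The fit of 8 sums leaves 2 residual degrees of freedom, and genes with few UMIs in the dividing cells are the least precise.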
